A study of Mus musculus with 9 samples.

Results

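A set of 10 genes of the endothelium and of vascular endothelial growth factor (VEGF) signalling was followed across 9 whole-kidney RNA libraries of mice. They are Vegfa, Kdr, Flt1, Pecam1, Cdh5, Emcn, Ehd3, Plat, Tek and Eng, and they were chosen by symbol as genes of glomerular and other renal vessels. All 10 were found among the 52160 symbols of the joined count tables, and all 10 were among the 18067 genes that passed the filter on low counts. The study compared 3 groups of 3 libraries of polyadenylated RNA from mice of the C57Bl/6N strain aged 16 weeks. WT is wild type. ΔPod has Ybx1, the gene of a Y-box protein that binds DNA and RNA, deleted in podocytes. K2A carries in podocytes a secretion-deficient Ybx1 in which both of the lysines concerned are replaced (K299A and K302A, exon 7). The promoter that drives the recombination in podocytes and the sex of the animals are not given in the sources used here, and a supplier is named for wild-type mice only. The labels do not say that the libraries of a group came from separate animals, so p-values measure the spread between these samples, which may be technical.

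The glomerulus is a tuft of capillaries whose fenestrated endothelium lies against the podocytes. Podocytes and tubule cells release VEGF-A, and the endothelium carries its receptors, VEGFR2 (Kdr), which signals for growth and survival, and VEGFR1 (Flt1), which binds the ligand tightly and, in its soluble form, captures it. Loss of VEGF-A from podocytes is known to disturb the glomerular capillaries. Alongside it, angiopoietins act on the receptor TIE2 (Tek), and endoglin (Eng) is a co-receptor for BMP9 and BMP10. PECAM-1 and VE-cadherin (Cdh5) sit at junctions between endothelial cells, and endomucin (Emcn) is a sialomucin of their surface. EHD3 (Ehd3) is a membrane-trafficking ATPase that in the kidney marks glomerular endothelium, and tissue plasminogen activator (Plat) is a secreted protease that turns plasminogen into plasmin.

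Promoter sequence (RefSeq, GRCm38.p6) was available for 7 members: Vegfa, Kdr, Flt1, Emcn, Ehd3, Tek and Eng. The 250 bases before the annotated start are shown for the 3 that held the motif described next. These are Flt1 and Eng, which varied over the libraries together with most members, and Emcn, which did not. Vegfa, Kdr, Ehd3 and Tek also varied with most members and held no match. Capitals mark AGGAAG or, for the other strand, CTTCCT, letters that hold the GGAA core bound by ETS factors such as Erg and Fli1. This was the single motif searched.
Flt1, chr5:147726012-147726261, minus strand: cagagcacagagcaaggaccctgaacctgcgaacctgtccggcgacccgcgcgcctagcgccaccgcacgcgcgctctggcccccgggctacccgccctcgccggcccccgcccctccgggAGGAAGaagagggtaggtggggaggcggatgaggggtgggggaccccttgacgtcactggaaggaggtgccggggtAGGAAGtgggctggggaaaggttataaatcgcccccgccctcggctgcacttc
Eng, chr2:32646345-32646594, plus strand: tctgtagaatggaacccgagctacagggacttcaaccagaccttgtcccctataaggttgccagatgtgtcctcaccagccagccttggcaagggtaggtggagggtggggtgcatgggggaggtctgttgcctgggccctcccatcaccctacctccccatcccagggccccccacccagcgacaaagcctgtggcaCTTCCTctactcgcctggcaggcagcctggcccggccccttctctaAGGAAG
Emcn, chr3:137340828-137341077, plus strand: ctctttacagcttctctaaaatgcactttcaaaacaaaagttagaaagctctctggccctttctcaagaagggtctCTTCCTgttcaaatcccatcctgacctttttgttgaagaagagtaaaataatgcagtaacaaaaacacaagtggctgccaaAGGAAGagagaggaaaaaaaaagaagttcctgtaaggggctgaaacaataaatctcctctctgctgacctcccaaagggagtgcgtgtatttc
The letters were found in 3 of the 7 members, Flt1, Eng and Emcn, each with 2 matches, and in 9686 of 32851 promoters of that length (29.48%). Base composition set the 3 apart: the Flt1 window held 70.4% G and C with 23 CpG dinucleotides, the Eng window 62.4% with 4 and the Emcn window 40.8% with 1, against medians of 52.4% and 6 over all promoters. A match describes the sequence and is no sign of binding.

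Libraries of every group differed in a way that the groups do not explain, and most members moved with it. In WT 1, WT 3, ΔPod 3 and K2A 3 genes with longer transcripts stood above their own average over the 9 libraries (slopes of centred log2 CPM on log2 transcript length of 0.24 to 0.35), and in the other 5, WT 2 with ΔPod 1 and 2 and K2A 1 and 2, genes with shorter transcripts did (-0.45 to -0.073). These 4 and 5 libraries are called the long-transcript and short-transcript libraries below. CPM are counts scaled to library size with TMM factors. Ribosomal protein genes took 0.964 to 1.13% of counts in the first and 2.36 to 7.63% in the second. Of all tested genes 26.6% lay higher in each of the 4 long-transcript libraries than in each of the 5 others and 26.5% lower, while 8 of the 10 members were higher and 1, Emcn, lower. Total counts ran from 30777142 to 46882253, and the members held from 118 (Cdh5 in ΔPod 1) to 9032 counts (Eng in ΔPod 3). Ybx1 had 1190, 1585 and 1185 CPM in WT, 1167, 881 and 605 in ΔPod and 1078, 1152 and 554 in K2A, and it was not called (log2 fold change -0.58, adjusted p = 0.465, and -0.51, adjusted p = 0.725). Adipocyte markers summed to 0.229 to 0.395 CPM in WT, to 143, 6.68 and 0.524 CPM in ΔPod 1 to 3 and to 220, 641 and 2.81 CPM in K2A 1 to 3, with Adipoq at 0 in ΔPod 3 and K2A 3. The Y-linked genes Ddx3y, Eif2s3y, Kdm5d and Uty summed to 94.4 to 119 CPM in WT, to 0 in ΔPod and to at most 0.682 CPM in K2A, while Xist was at 0 in WT and at 17.0 to 331 CPM in the mutant libraries. Genotype and sex therefore cannot be told apart in any comparison with WT. In what follows a gene is called at a false discovery rate of 0.05 in the edgeR fit with a group term only, unless another fit is named; limma-voom with sample weights called most members and is given with the members as a list.

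**Figure D1:**
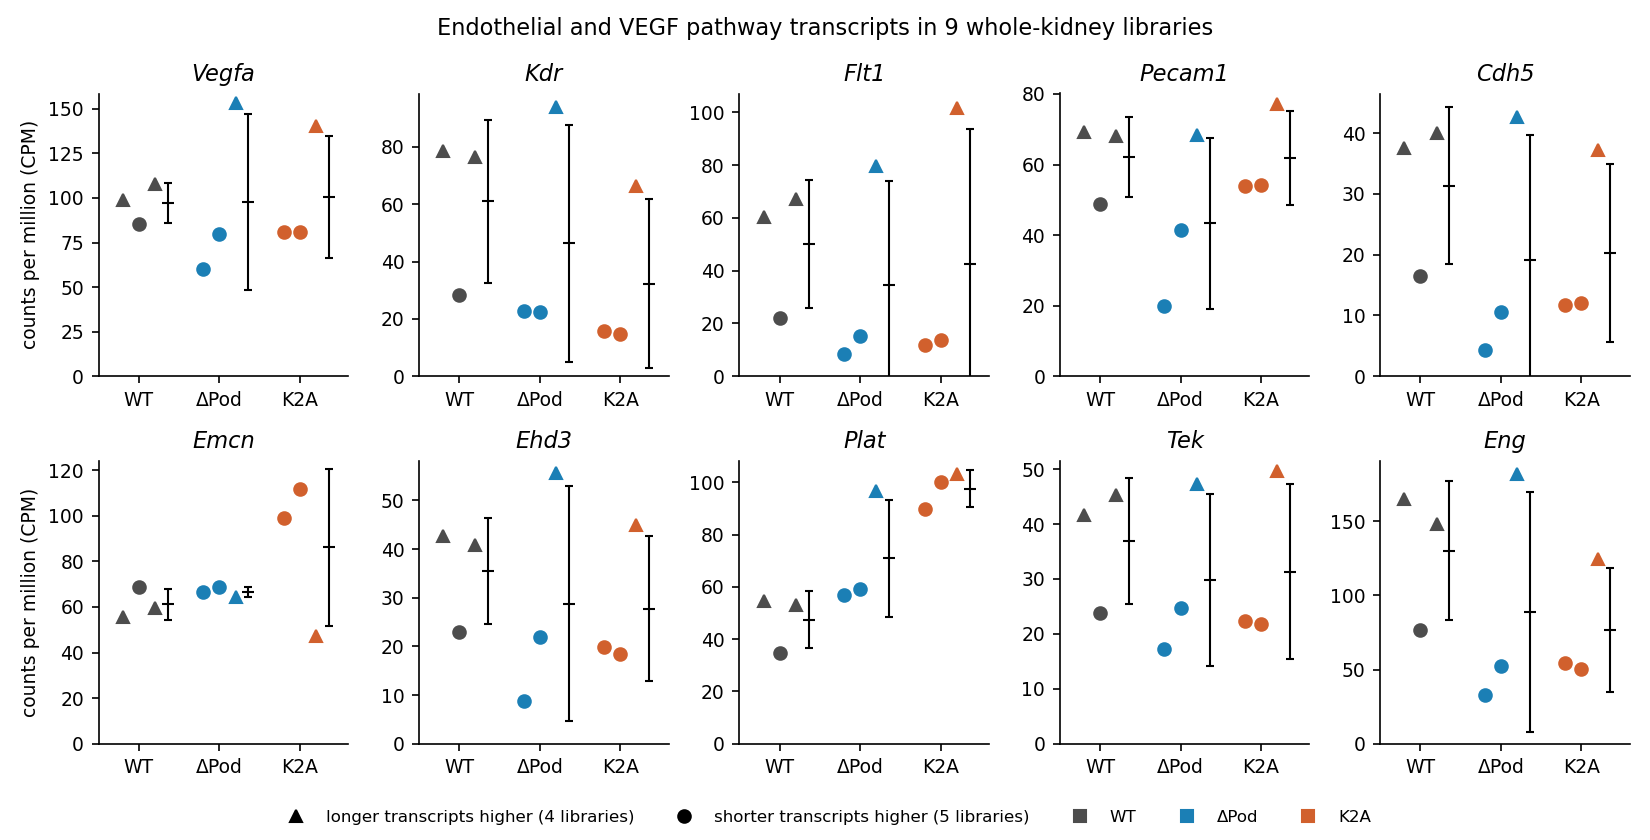
Level of each member in every library, in CPM (vertical axis, from 0), by group (horizontal axis). Triangles are the 4 long-transcript and circles the 5 short-transcript libraries, and the bar beside each group is the mean ± SD of 3 libraries (bars of Flt1 and Cdh5 are cut off at 0). Within each group the triangles of Kdr, Flt1, Cdh5, Ehd3, Tek and Eng lie above the circles, and Plat is the member whose mutant libraries all lie above WT.

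Vegfa, the ligand, was at similar mean levels in the 3 groups. It had 98.9, 85.1 and 108 CPM in WT 1 to 3, 59.9, 79.99 and 153 CPM in ΔPod 1 to 3, and 81.1, 80.6 and 140.1 CPM in K2A 1 to 3. The highest value of each group came from a long-transcript library and the groups overlapped. WT averaged 97.3 ± 11.4 CPM, ΔPod 97.7 ± 49.2 and K2A 101 ± 34.2 (SD, n = 3). Against WT the fitted log2 fold change was 0.0073 in ΔPod with an SE of 0.40 (adjusted p = 0.993) and 0.049 in K2A with the same SE (adjusted p = 0.969). A fit that takes the length slope of each library as a covariate gave 0.27 (SE 0.12, adjusted p = 0.163) and 0.30 (SE 0.12, adjusted p = 0.127), and edgeR did not call the gene there either.

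The VEGF receptors varied widely between libraries of the same group. Kdr had 78.5, 28.3 and 76.5 CPM in WT 1 to 3, 22.6, 22.5 and 94.1 CPM in ΔPod 1 to 3, and 15.9, 14.7 and 66.3 CPM in K2A 1 to 3. Flt1 had 60.4, 22.2 and 67.2 CPM in WT, 8.21, 15.2 and 79.8 CPM in ΔPod, and 11.8, 13.6 and 102 CPM in K2A. Both receptors were high in the same 4 libraries and low in the other 5, so that every group held high and low values and the groups overlapped. Over the 9 libraries the highest value was 6.41-fold the lowest for Kdr and 12.4-fold for Flt1, the widest range of the members, with Cdh5 at 9.98-fold. Kdr was at -0.40 on the log2 scale in ΔPod (SE 0.79, adjusted p = 0.796), and at -0.92 in K2A (SE 0.80, adjusted p = 0.761). For Flt1 the values were -0.54 (SE 1.05, adjusted p = 0.791) and -0.24 (SE 1.05, adjusted p = 0.943). None of these differences passed the edgeR test. Without ΔPod 3 the ΔPod values were -1.48 for Kdr and -2.12 for Flt1, and without K2A 3 the K2A values were -2.05 and -2.02, still not called by edgeR. In the length-slope fit Kdr was at 0.23 in ΔPod and at -0.51 in K2A (SE 0.24 and 0.23, adjusted p = 0.546 and 0.160), and Flt1 at 0.092 and 0.11 (SE 0.15 and 0.14), so that 3 of the 4 values changed sign and none was called.

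Per kilobase of annotated exon the Kdr to Flt1 ratio was 1.94, 1.91 and 1.70 in WT, 4.12, 2.21 and 1.76 in ΔPod and 2.01, 1.62 and 0.977 in K2A. The receptor that transmits most of the signal was thus the higher of the pair in 8 of 9 libraries, and K2A 3 was the exception. The Vegfa to Kdr ratio was 2.66, 6.34 and 2.97 in WT, 5.58, 7.49 and 3.44 in ΔPod and 10.7, 11.6 and 4.45 in K2A. Within each group it was lowest in the long-transcript libraries. ΔPod 3 and K2A 3 lay above both long-transcript WT libraries, and K2A 1 and K2A 2 lay above WT 2.

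Other genes of VEGF and placental growth factor signalling (13 tested) gave the same picture. They include the ligand genes Vegfb and Vegfc, the coreceptor genes Nrp1 and Nrp2 and the lymphatic receptor gene Flt4. The oxygen-response genes Hif1a, Epas1 and Vhl belong to the list as well. EdgeR and DESeq2 called 0 of 13 in either comparison. At an unadjusted edgeR p under 0.05 there was 1 gene in each, against 2495 of all 18067 genes in ΔPod and 1919 in K2A. Against WT 3 values were positive and 10 negative in ΔPod (median -0.20, log2), and in K2A 5 were positive and 8 negative with a median of -0.046, beside medians of 0.076 and 0.093 over all tested genes. Pgf, which encodes placental growth factor, a ligand of VEGFR1, had the smallest p of the list. It had 0.277, 0.401 and 0.272 CPM in WT, 0.904, 0.750 and 0.464 CPM in ΔPod and 0.899, 1.04 and 0.436 CPM in K2A, a low transcript whose 6 mutant libraries lay above WT. Fold changes of 1.14 in ΔPod (log2, SE 0.46, adjusted p = 0.342) and 1.31 for K2A (SE 0.46, adjusted p = 0.325) did not pass.

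Cdh5 and Pecam1, which encode the junction proteins VE-cadherin and PECAM-1, differed in how far apart their libraries lay. Cdh5 had 37.5, 16.5 and 40.0 CPM in WT 1 to 3, 4.27, 10.6 and 42.6 CPM in ΔPod 1 to 3, and 11.7, 12.0 and 37.3 CPM in K2A 1 to 3. Pecam1 had 69.3, 48.9 and 68.2 CPM in WT, 19.9, 41.5 and 68.5 CPM in ΔPod, and 54.0, 54.3 and 77.2 CPM in K2A. ΔPod 1 was the lowest library for both, and ΔPod 3 and K2A 3 were near WT 1 and WT 3 or above them. On the log2 scale Cdh5 was at -0.71 against WT in ΔPod (SE 0.83, adjusted p = 0.665), and at -0.62 in K2A (SE 0.83, adjusted p = 0.820). Pecam1 was at -0.52 (SE 0.43, adjusted p = 0.550) and -0.0070 (SE 0.43, adjusted p = 0.995). EdgeR called neither gene in either comparison. Without ΔPod 3 Cdh5 was at -2.11 and Pecam1 at -1.05 in ΔPod, not called (adjusted p = 0.0951 and 0.105). The fit with the length slope called Pecam1 in K2A once K2A 3 was left out (0.60, adjusted p = 0.0483), where 20.5% of all genes were called, and limma-voom called both genes in both comparisons (Cdh5 -1.81 and -1.62, Pecam1 -0.72 and -0.32). Pecam1 is also made by platelets and leukocytes. Markers of those cells, 10 of 11 tested, summed to 63.7 to 90.1 CPM in WT, 49.3 to 86.9 CPM in ΔPod and 50.4 to 73.2 CPM in K2A, and edgeR called 0 of them. Csf1r made up much of the sum, at 66.6 CPM in WT 1 and 3.87 CPM in ΔPod 1. Single markers were mixed, with 6 positive and 4 negative fold changes in ΔPod and 4 and 6 in K2A. Ptprc was at 9.59, 9.68 and 10.8 CPM in ΔPod against 5.05 to 6.45 CPM in WT. The platelet gene Itga2b was at 27.1, 13.2 and 6.93 CPM in ΔPod against 5.02 to 9.42 CPM in WT.

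Emcn was the member that did not follow the others. It had 55.4, 68.8 and 59.6 CPM in WT 1 to 3, 66.4, 68.6 and 64.4 CPM in ΔPod 1 to 3, and 99.2, 112 and 47.2 CPM in K2A 1 to 3. WT and ΔPod lay close together (61.3 ± 6.84 and 66.4 ± 2.10 CPM, mean ± SD, n = 3), K2A 1 and K2A 2 lay above all other libraries and K2A 3 below all. Its fold changes (log2, SE 0.33 each) were 0.12 in ΔPod (adjusted p = 0.858) and 0.49 in K2A (adjusted p = 0.699), and edgeR did not call the gene. It was called in K2A by the fit with the length slope without K2A 3 (0.67, adjusted p = 0.0109) and by limma-voom in ΔPod and K2A (0.25 and 0.86, adjusted p = 0.0427 and 6.26e-05). K2A 1 and K2A 2 were also the libraries with the highest adipocyte marker sums (220 and 641 CPM), and urothelium markers summed to 44.2 and 55.6 CPM there against 5.09 to 10.4 CPM in WT. ΔPod 1, with 143 and 42.6 CPM of these markers, had Emcn at 66.4 CPM. Their part in the Emcn values was not tested. The Emcn to Cdh5 ratio per kilobase spread from 0.985 in K2A 3 to 12.1 in ΔPod 1. It was 1.15, 1.16, 1.17 and 0.985 in the long-transcript libraries WT 1, WT 3, ΔPod 3 and K2A 3, and at least 3.23 in every short-transcript library.

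Plat, the tissue plasminogen activator gene, was the single member that was higher in every mutant library than in every WT library. It had 54.6, 34.8 and 53.1 CPM in WT 1 to 3, 57.0, 59.2 and 96.8 CPM in ΔPod 1 to 3, and 89.7, 99.9 and 103 CPM in K2A 1 to 3. The lowest ΔPod library stood 1.04-fold above the highest WT library and the lowest K2A library 1.64-fold above it. Of all tested genes 8.73% were without overlap and higher in ΔPod and 11% in K2A, so that 1 member of 10 in each comparison is close to the background. WT averaged 47.5 CPM with an SD of 11.03, ΔPod 71.0 with an SD of 22.3 and K2A 97.6 with an SD of 7.07 (n = 3). EdgeR gave log2 fold changes of 0.58 for ΔPod (SE 0.31, adjusted p = 0.404) and 1.04 for K2A (SE 0.31, adjusted p = 0.229), which miss the false discovery rate of 0.05. Without ΔPod 3 the ΔPod value was 0.25 (adjusted p = 0.478), and without WT 2 it was 0.38 (adjusted p = 0.547).

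The call on Plat depended on the fit. Once the length slope of each library entered the fit it rose in both comparisons, by 0.77 in ΔPod (SE 0.17, adjusted p = 0.0183) and by 1.23 for K2A (SE 0.17, adjusted p = 0.00178). In that fit 14.3% and 15.9% of all genes were called, 6.15% and 7.46% as higher, and Plat was the 1 member of 10. Given the sign of the slope as a term in place of its size, Plat was at 0.74 in ΔPod (adjusted p = 0.0846) and at 1.24 in K2A (adjusted p = 0.0117), with 3.96% and 4.09% of genes called. Limma-voom put Plat at 0.17 in ΔPod (adjusted p = 0.158), where it was the 1 member not called, and at 0.84 in K2A (adjusted p = 7.47e-05). DESeq2 called it in K2A alone (0.98, adjusted p = 0.0481), where 5.03% of genes were called (5.52% in ΔPod). In the slope fit the K2A value stayed called without any 1 of the 6 libraries (adjusted p from 0.000500 to 0.0139), in fits that called 1498 to 3793 genes. The ΔPod value was not called without WT 2 (0.60, adjusted p = 0.106), without WT 3 (0.77, adjusted p = 0.0522) or without ΔPod 3 (0.54, adjusted p = 0.124).

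Within libraries whose length slopes had the same sign, Plat had to be higher in the mutants, since its mutant and WT libraries did not overlap. Slopes still differed among the short-transcript libraries, from -0.45 in ΔPod 1 to -0.073 in WT 2. WT 2 was the only WT library there and had the lowest Plat level of all libraries (34.8 CPM). Among the long-transcript libraries the log2 ratio to WT was 0.85 for ΔPod and 0.94 for K2A, and among the short-transcript libraries 0.74 and 1.45. Of the members Plat alone was positive in all 4 of these values, which restates its lack of overlap. Each value rests on 1 or 2 libraries and has no test. Plat was 57.0, 89.7 and 99.9 CPM in the 3 libraries with over 100 CPM of adipocyte markers and 59.2, 96.8 and 103 CPM in the other 3 mutant libraries. Without those 3 libraries, an alternative chosen after seeing the data, its log2 fold change was 0.71 in ΔPod and 1.13 in K2A (adjusted p = 0.760 and 0.626). When the length slope was added in the same 6 libraries it rose by 0.82 and 0.83 (adjusted p = 0.000745 and 0.00398), where 21% and 16.9% of all genes were called. In that fit Kdr (-0.60, adjusted p = 0.0276) and Eng (-0.68, adjusted p = 0.0251) fell in K2A, whose group was then K2A 3 alone, so its spread was assumed to be that of the other groups.

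**Figure D2:**
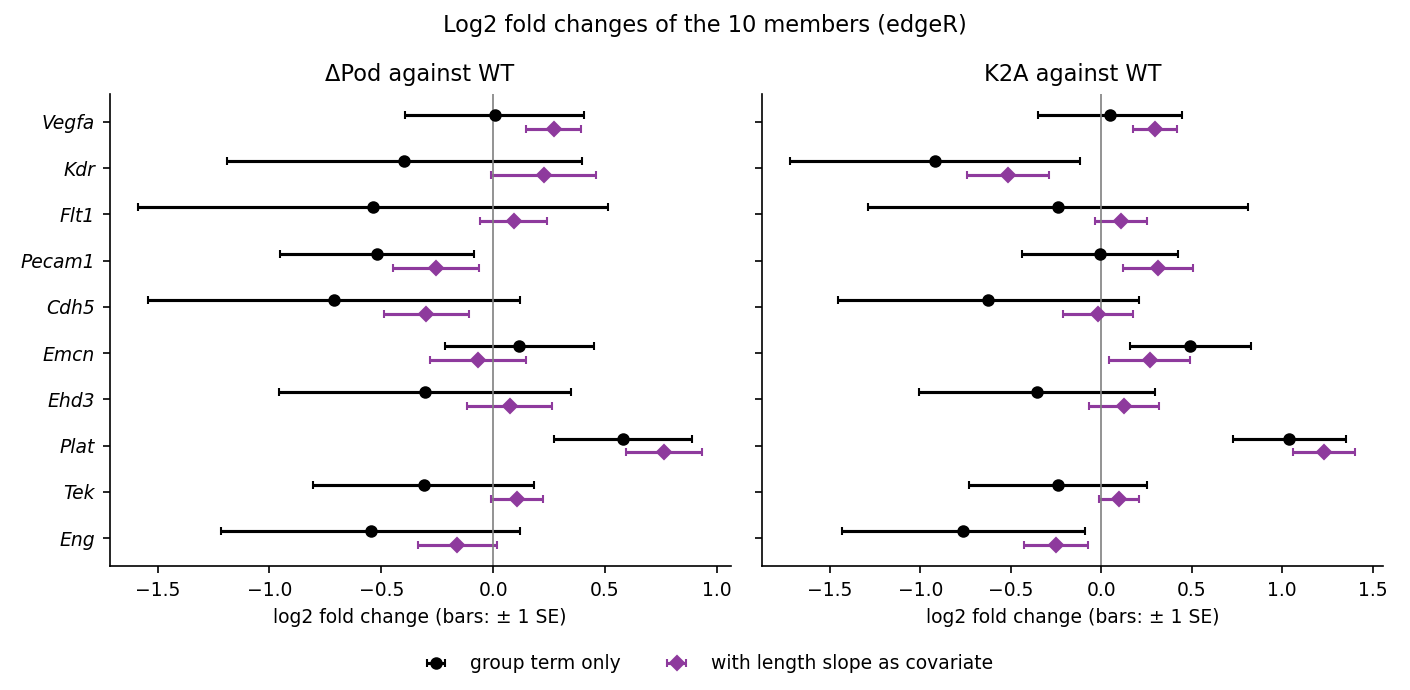
Log2 fold changes of the 10 members against WT in ΔPod (left) and K2A (right), with bars of ± 1 SE. Black circles are the fit with the group term only and purple diamonds the fit with the length slope of each library as a covariate. The bars shorten in the second fit, and Plat, at 0.77 and 1.23, is the member called there.

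Ehd3, the glomerular endothelial marker, followed the receptors and not Plat. It had 42.7, 23.0 and 40.9 CPM in WT 1 to 3, 8.68, 21.97 and 55.5 CPM in ΔPod 1 to 3, and 19.8, 18.5 and 44.9 CPM in K2A 1 to 3. The 4 long-transcript libraries were high, ΔPod 1 was lowest, and the groups overlapped. EdgeR placed it at -0.30 in ΔPod (log2, SE 0.65, adjusted p = 0.810) and at -0.36 for K2A (SE 0.65, adjusted p = 0.861), and at 0.074 and 0.13 with the length slope as a covariate. EdgeR called none of these. Without ΔPod 3 the ΔPod value was -1.24 (adjusted p = 0.147), and without K2A 3 the K2A value was -0.94 (adjusted p = 0.392). In bulk tissue such as this, fewer cells of a type and less RNA per cell cannot be told apart. Podocyte markers, the other cell type of the glomerulus, varied alongside: 14 genes summed to 631 to 1297 CPM in WT, 357 to 1709.5 CPM in ΔPod and 552 to 1266 CPM in K2A, with the lowest sum of ΔPod in ΔPod 1 and the highest in ΔPod 3, as for Ehd3. Their part in the Ehd3 values was not tested.

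The Plat to Ehd3 ratio per kilobase, which compares these genes inside each library, was 1.34, 1.59 and 1.36 in WT, 6.90, 2.83 and 1.83 in ΔPod and 4.75, 5.69 and 2.42 in K2A. All 6 mutant libraries lay above the highest WT library. The lowest mutant ratios came from the long-transcript libraries ΔPod 3 and K2A 3. The pair was chosen with the values known, so no test is given.

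**Figure D3:**
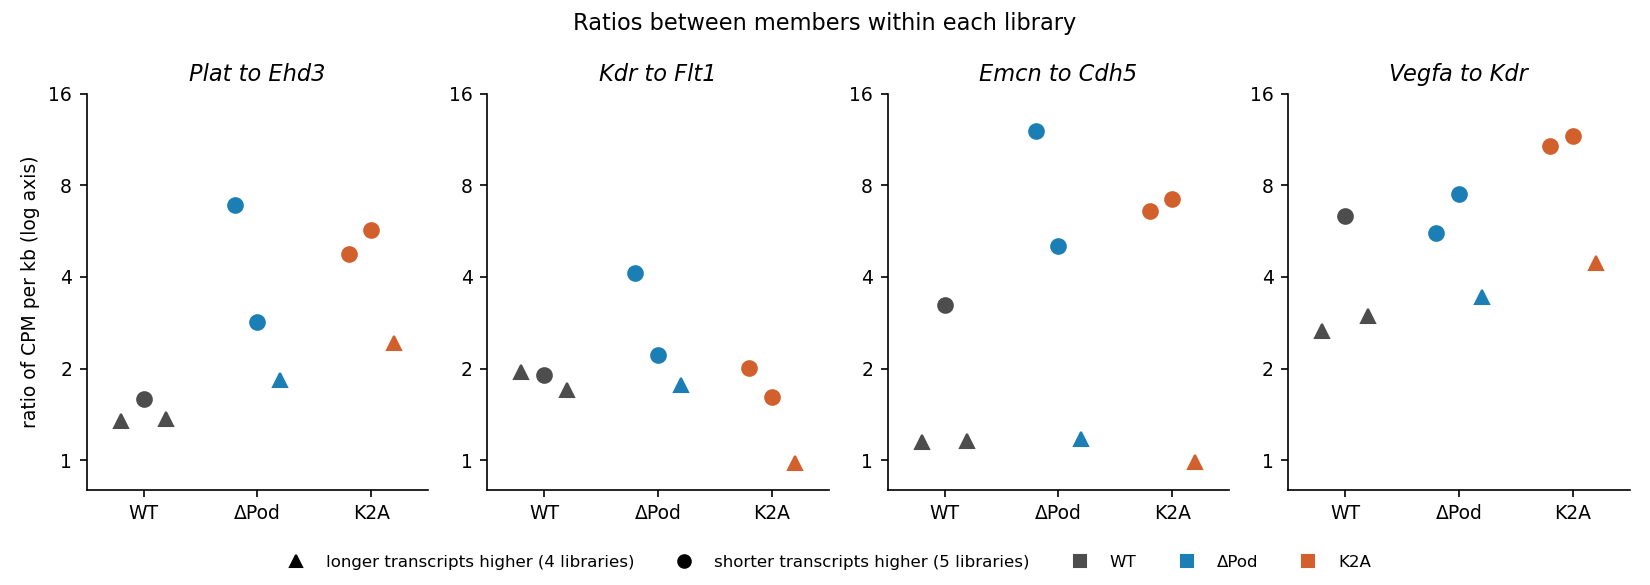
Ratios of levels per kilobase of annotated exon between pairs of members in every library (vertical log axis) by group (horizontal axis). Triangles are long-transcript and circles short-transcript libraries. Plat to Ehd3 is 1.34 to 1.59 in WT and 1.83 to 6.90 in the mutants, whereas Emcn to Cdh5 separates triangles from circles in every group.

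A list of 5 other genes of glomerular capillaries (Gata5, Tbx3, Sema5a, Mapt and Fbln2) held 0 genes called by edgeR or DESeq2 in both comparisons. It held 0 at an unadjusted edgeR p under 0.05, a level reached by 2495 genes of 18067 in ΔPod and 1919 in K2A. In ΔPod 1 value was positive and 4 were negative (median -0.45), and in K2A all 5 were negative (median -0.36). Mapt, best known as the neuronal gene for tau, was the most abundant and had the smallest p. It had 225, 119 and 228 CPM in WT, 29.1, 62.9 and 196 CPM in ΔPod and 55.8, 59.1 and 122 CPM in K2A. Fold changes of -0.99 in ΔPod (log2, SE 0.67, adjusted p = 0.475) and -1.27 for K2A (SE 0.67, adjusted p = 0.581) did not pass. In the length-slope fit Mapt fell in K2A, by 0.73 on the log2 scale (adjusted p = 0.0444). It was the 1 call of the list in that fit, where 15.9% of all genes were called in K2A.

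Tek and Eng, the receptors for angiopoietins and for BMP9 and BMP10, also followed the length slope. Tek had 41.6, 23.8 and 45.4 CPM in WT 1 to 3, 17.3, 24.7 and 47.4 CPM in ΔPod 1 to 3, and 22.4, 21.8 and 49.7 CPM in K2A 1 to 3. Eng had 165, 76.8 and 148 CPM in WT, 32.8, 52.2 and 182 CPM in ΔPod, and 54.8, 50.6 and 125 CPM in K2A. Tek lay between 41.6 and 49.7 CPM in the long-transcript and between 17.3 and 24.7 CPM in the short-transcript libraries, whatever the group. Eng was below WT 2 in all 4 short-transcript mutant libraries. Log2 fold changes of Tek were -0.31 in ΔPod (SE 0.49, adjusted p = 0.744) and, for K2A, -0.24 (SE 0.49, adjusted p = 0.876), and those of Eng were -0.55 (SE 0.67, adjusted p = 0.677) and -0.76 (SE 0.67, adjusted p = 0.761). None passed the edgeR test. Without ΔPod 3 Tek was at -0.85 and Eng at -1.65 in ΔPod (adjusted p = 0.206 and 0.0911), and without K2A 3 they were at -0.79 and -1.35 in K2A, not called. Eng shares 61 bases of exon with Fpgs on the opposite strand, and the strand setting of the counting is not given in the sources used here, so reads of that stretch are uncertain. The Tek to Eng ratio per kilobase was 0.216, 0.267 and 0.263 in WT, 0.453, 0.406 and 0.224 in ΔPod and 0.351, 0.371 and 0.342 in K2A, above all WT libraries in every mutant library but ΔPod 3.

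Among 19 further genes of angiopoietin, Tie, BMP and Notch signalling edgeR called 0 in either comparison. At an unadjusted edgeR p under 0.05 there were 2 in each, against 2495 of all 18067 genes in ΔPod and 1919 in K2A. DESeq2 called 0 in ΔPod and 2 in K2A, where it called 5.03% of all genes. In both comparisons 9 of the 19 values were positive and 10 negative (medians -0.068 and -0.017). Angpt1, a ligand of TIE2, had the smallest p in ΔPod. Its values were 10.5, 12.8 and 17.6 CPM in WT, 28.5, 20.3 and 24.5 CPM in ΔPod and 13.3, 12.7 and 13.4 CPM in K2A, so that the ΔPod libraries alone lay above WT. Its log2 fold change in ΔPod was 0.84 (SE 0.28, adjusted p = 0.276). Id1, a target of BMP signalling, had the smallest p in K2A. It had 12.6, 19.4 and 15.3 CPM in WT, 30.9, 40.4 and 28.3 CPM in ΔPod and 33.0, 49.4 and 87.9 CPM in K2A, with all 6 mutant libraries above WT. Its fold changes (log2) were 1.07 in ΔPod (SE 0.39, adjusted p = 0.311) and 1.85 for K2A (SE 0.40, adjusted p = 0.0900). With the length slope as a covariate Angpt1 and Id1 rose in ΔPod (0.84 and 1.20, adjusted p = 0.0321 and 0.0442), and Id1 and Id3, another BMP target, rose in K2A (1.89 and 1.71, adjusted p = 0.00509 and 0.00995). These were the 2 calls of the 19 genes in each comparison of that fit. It called 14.3% and 15.9% of all genes, 6.15% and 7.46% as higher.

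Other pan-endothelial genes were mixed. In 7 of 23 (30.4%) each long-transcript library lay above each short-transcript one, as in 8 of the 10 members. In 6 (26.1%) the order was the reverse. Both shares are close to the 26.6% and 26.5% of all tested genes. Of the 23 tested, edgeR and DESeq2 called 0 in either comparison. An unadjusted edgeR p under 0.05 was found for 2 in ΔPod and 4 in K2A, against 2495 and 1919 of all 18067 genes. Values of 13 were positive in ΔPod (median 0.24) and 19 in K2A (median 0.54), where 3 of the 10 members were positive in each. Summed over the list, the level was 434 to 472 CPM in WT, 753, 558 and 470 CPM in ΔPod 1 to 3 and 731, 716 and 501 CPM in K2A 1 to 3, so that the short-transcript mutant libraries were the highest. Tm4sf1 and Egfl7 made up 206 and 180.3 CPM of the sum in ΔPod 1. Fli1, an ETS transcription factor of endothelium and blood cells, had the smallest p. It had 5.35, 5.50 and 4.67 CPM in WT, 10.1, 8.35 and 7.38 CPM in ΔPod and 9.30, 9.78 and 6.66 CPM in K2A. All 6 mutant libraries were above WT, by 0.74 in ΔPod (log2, SE 0.27, adjusted p = 0.317) and 0.73 for K2A (SE 0.27, adjusted p = 0.356) in the fit. After adding the length slope Egfl7 and Fli1 rose in ΔPod, and Adgrl4, Egfl7, Fli1, S1pr1 and Thbd rose in K2A, by 0.51 to 0.79 in K2A. These were 2 and 5 of the 23, in a fit that called 6.15% and 7.46% of all genes as higher.

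Genes of other vessel types held the 1 gene of all the lists that was called in the fit with the group term only. Of 15 tested genes of peritubular capillaries, veins, arteries and lymphatics, 0 rose and 1 fell in each comparison by edgeR. DESeq2 called 2 in each, where it called 5.52% of all genes in ΔPod and 5.03% in K2A. Cd36, a fatty acid transporter of capillaries that tubule cells, macrophages and fat cells also make, had 642, 552 and 644 CPM in WT, 129, 196 and 86.9 CPM in ΔPod and 131, 141 and 169 CPM in K2A. Every mutant library, long-transcript or short-transcript, was below WT 2, the lowest of WT. It fell by 2.16 in ΔPod (SE 0.34, adjusted p = 0.0287) and by 2.06 for K2A (SE 0.34, adjusted p = 0.0338) on the log2 scale, where 0.587% and 0.526% of all genes fell. The calls were lost with upper quartile factors (-1.93 and -1.92, adjusted p = 0.0603 and 0.0682), in K2A with library size alone (-1.99, adjusted p = 0.0541) and in ΔPod in a fit of the 6 libraries compared (-2.13, adjusted p = 0.105). In ΔPod the call was also lost without WT 1, WT 2, WT 3, ΔPod 1 or ΔPod 2 (adjusted p from 0.0586 to 0.144) and kept without ΔPod 3 (adjusted p = 0.0288). In K2A it was lost without any 1 of the 6 libraries (adjusted p from 0.0548 to 0.201), although the log2 fold change lay between -2.22 and -1.995. Adjusted for the length slope Cd36 fell by 2.19 and 2.08 (adjusted p = 0.00169 and 0.00134). In that fit 1 gene of the list rose and 2 fell in each comparison. Besides Cd36, Igfbp3 rose (0.72) and Aqp1 fell (-0.72) in ΔPod, and Lyve1 rose (2.51) and Npr3 fell (-0.96) in K2A. The fit called 14.3% and 15.9% of all genes.

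Taking the members as a list, edgeR called 0 of 10 in ΔPod against WT, where 0.985% of all 18067 genes were called, and 0 of 10 in K2A against WT, where 0.847% were. At an unadjusted p under 0.05 the counts were 0 and 1 (Plat), against 2495 and 1919 of all 18067 genes. DESeq2 called 0 and 1 (Plat). In both comparisons 3 members were positive (Vegfa, Emcn and Plat) and 7 negative, with medians of -0.35 and -0.24 beside 0.076 and 0.093 over all tested genes. Members whose libraries did not overlap between groups numbered 1 of 10 in each (Plat), against 18.2% and 20.1% of all genes. Both comparisons share the WT libraries, so their values are not independent of each other. Limma-voom with sample weights stood apart from the other fits, as it called 9 and 10 of the 10 members, where it called 78.9% of all genes in each. Its weights ran from 0.0826 in K2A 3 and 0.0996 in ΔPod 3 to 11.6 in ΔPod 2. WT 1 and WT 3 were at 3.80 and 2.58, WT 2 at 0.298 and ΔPod 1, a short-transcript library, at 0.204. K2A 1 and K2A 2 had higher weights than any WT library. The fit thus set WT 1 and WT 3 mainly against ΔPod 2 in ΔPod, and against K2A 1 and K2A 2 in K2A. Its ΔPod calls rest mostly on ΔPod 2 among the mutant libraries. In this fit Kdr was at -1.70 and -2.25, Flt1 at -1.97 and -2.22 and Vegfa at -0.34 and -0.32.

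The comparison of K2A with ΔPod asks whether loss of secretion alone differs from loss of the protein in podocytes. The members did not differ between these groups beyond the spread of their libraries. EdgeR called 0 of 10 members and 0 of all genes (0%), with 0 members and 364 genes at an unadjusted p under 0.05, while DESeq2 called 0 members and 19 genes. Log2 fold changes of K2A over ΔPod ran from -0.52 for Kdr (SE 0.80) to 0.51 for Pecam1 (SE 0.43), and Plat was at 0.46 (SE 0.31), each with an adjusted p of 1. The 3 libraries of each group overlapped for all 10 members, against 5.11% of genes without overlap. In the fit with the length slope 0 members were called and 0.183% of genes, and Kdr (-0.74, adjusted p = 0.134), Pecam1 (0.57, adjusted p = 0.148) and Plat (0.47, adjusted p = 0.166) had the smallest adjusted p. In that fit without K2A 3, Plat, Emcn, Pecam1 and Cdh5 rose by 0.54 to 0.77, where 16.4% of all genes were called, and in the 6 libraries with little adipocyte signal 0 members were called (3.76% of genes). Limma-voom with sample weights called Pecam1, Emcn and Plat (0.40, 0.61 and 0.67), where it called 28% of genes.

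The size of the shift between long-transcript and short-transcript libraries differed by member. Flt1 was 2.88-fold higher in the long-transcript libraries within WT, 6.80-fold within ΔPod and 7.99-fold within K2A. Kdr (2.74-, 4.17- and 4.34-fold), Cdh5 (2.34-, 5.74- and 3.13-fold) and Eng (2.04-, 4.28- and 2.37-fold) came next. Ehd3 and Tek lay between 1.82- and 3.62-fold, and Vegfa, Pecam1 and Plat between 1.09- and 2.23-fold. Emcn was at 0.836, 0.954 and 0.447, the only member below 1, and it was so in all 3 groups. The members' medians were 1.82, 2.86 and 2.29, beside 0.989, 1.03 and 0.920 over all tested genes. The longest annotated transcripts of the members ran from 3422 bases (Eng) to 6895 bases (Flt1), with a median of 3827 against 2914 over the 17599 tested genes with a length. Flt1 and Kdr have the longest transcripts of the 10 and the largest shifts in K2A, but Emcn and Eng have nearly the same length (3521 and 3422 bases) and opposite shifts. These ratios rest on 1 or 2 libraries a side and on classes read from the same libraries, so they are a description.

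**Figure D4:**
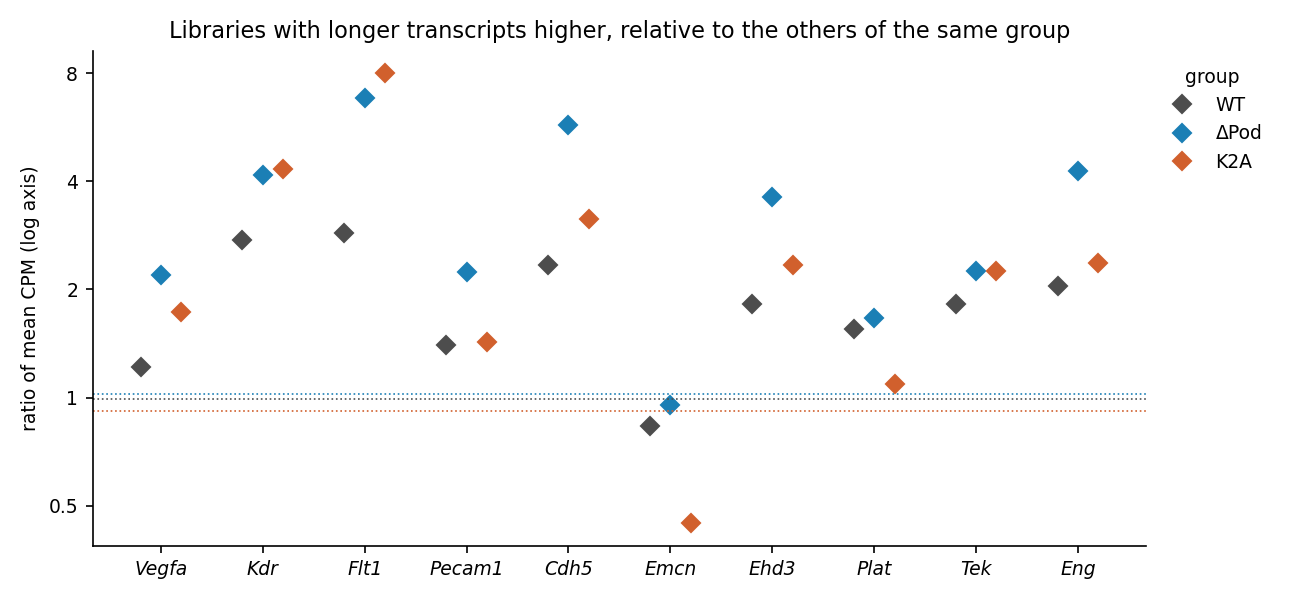
Ratio of mean CPM in the long-transcript over the short-transcript libraries of the same group (vertical log axis) for each member (horizontal axis), with a diamond per group. Dotted lines are the medians of all tested genes, at 0.989 (WT), 1.03 (ΔPod) and 0.920 (K2A). Emcn alone lies below 1 in the 3 groups, and Flt1 reaches 7.99 in K2A.

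Levels per kilobase of annotated exon put the members in a similar order in the 3 groups. In WT Eng was highest (32.1 ± 11.6 CPM per kilobase, mean ± SD, n = 3), followed by Vegfa (22.7 ± 2.65), Emcn (11.3 ± 1.26), Pecam1 (9.98 ± 1.84), Tek (7.84 ± 2.44), Plat (7.61 ± 1.77), Cdh5 (7.46 ± 3.07), Kdr (6.76 ± 3.15), Ehd3 (5.41 ± 1.66) and Flt1 (3.70 ± 1.80). Among WT neighbours in this order Vegfa and Emcn alone did not overlap. In ΔPod the order was Vegfa (22.8), Eng (21.98), Emcn (12.3), Plat (11.4), Pecam1 (6.95), Tek (6.32), Kdr (5.14), Cdh5 (4.55), Ehd3 (4.38) and Flt1 (2.55), and all neighbours overlapped. In K2A it was Vegfa (23.5), Eng (19.0), Emcn (15.9), Plat (15.6), Pecam1 (9.93), Tek (6.64), Cdh5 (4.84), Ehd3 (4.23), Kdr (3.58) and Flt1 (3.13), with Plat and Pecam1 as the neighbours that did not overlap. Plat thus moved from rank 6 in WT to rank 4 in both mutants. Flt1 was the lowest per length in every group.

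The 5 genes outside the list that lay nearest to the members' mean were closer to it than every member. They were picked for nearness from many candidates, so the comparison is no test. By the root mean square difference of centred log2 CPM over 9 libraries, the nearest of 11853 candidate genes (mean log2 CPM of 1 or more) were Ids, a lysosomal sulfatase gene (0.0533), Adra1a, the alpha-1A adrenergic receptor gene (0.0762), Cbfa2t2 (0.0790), Ptk2, which encodes focal adhesion kinase (0.0835), and Arhgap44 (0.0958). Ids had 70.6, 39.0 and 75.9 CPM in WT, 24.8, 37.1 and 84.5 CPM in ΔPod and 40.1, 39.3 and 82.5 CPM in K2A. Its long-transcript libraries were high and the others low in every group, as for the members' mean. The members themselves lay at 0.130 (Tek) to 0.877 (Emcn), with Flt1 at 0.708 and Plat at 0.689. None of the 5 genes was called in any comparison.

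**Figure D5:**
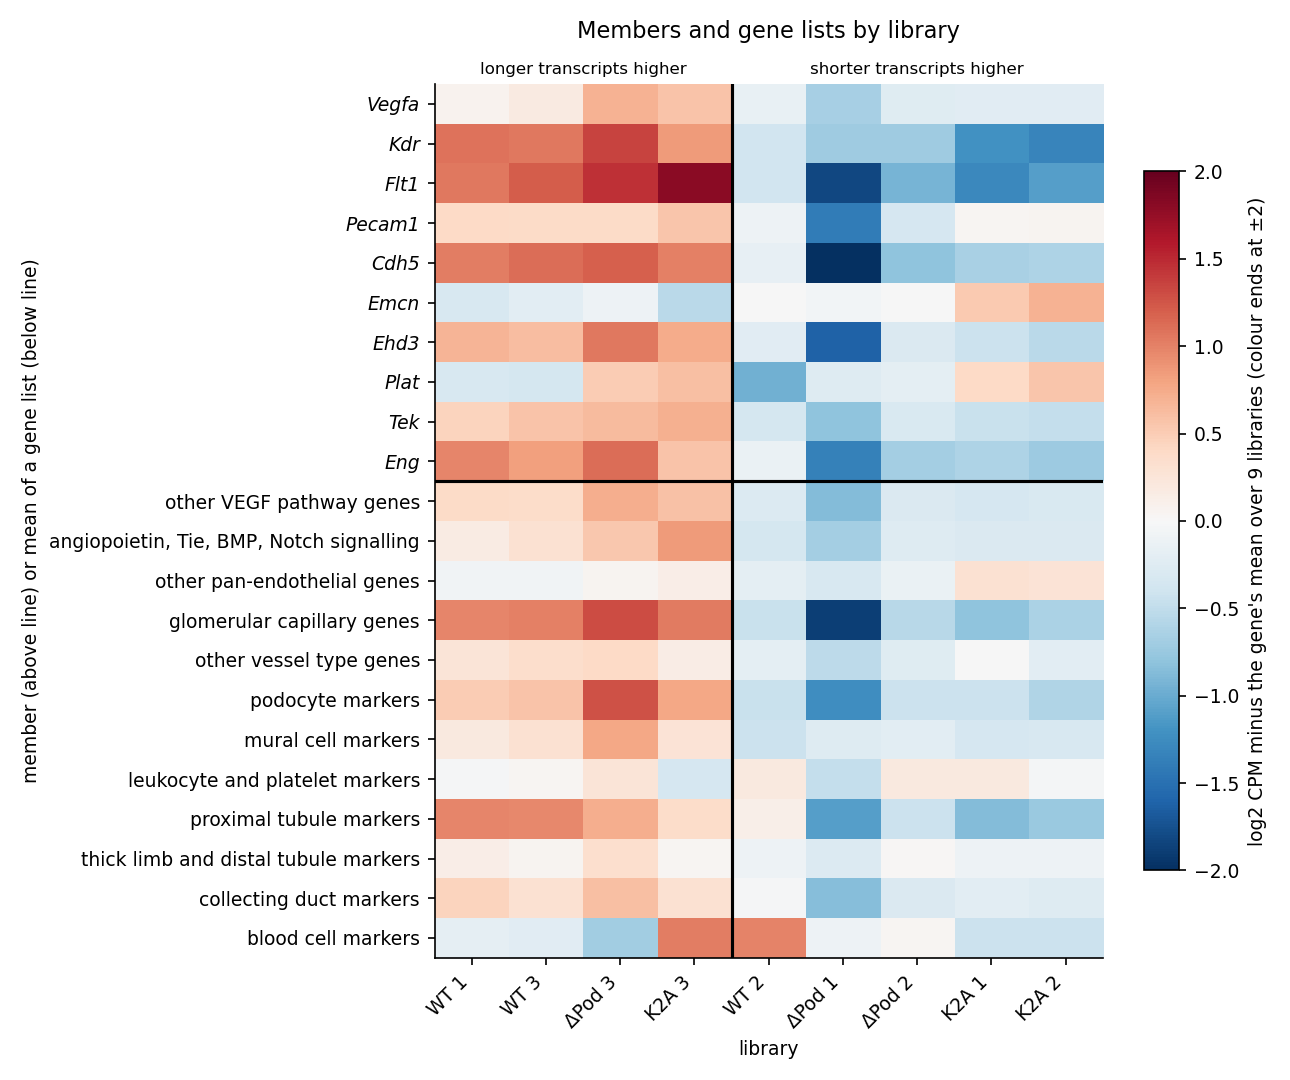
Log2 CPM of each member (upper rows) and mean of each gene list (lower rows) minus its mean over the 9 libraries, with libraries in columns, the 4 long-transcript ones on the left and the 5 short-transcript ones on the right. Red is higher and blue lower, with colours ending at ±2. Most members, glomerular capillary genes and podocyte markers are red on the left and blue on the right, whereas Emcn, Plat and the mean of the other pan-endothelial genes are not.

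Where the members lie in the genome (mm10, GENCODE vM21, whole gene) is given for the genes on which the results turn. Plat spans chromosome 8, 22757727 to 22782844, plus strand. Kdr spans chromosome 5, 75932827 to 75978458, and Flt1 chromosome 5, 147561604 to 147726011, both on the minus strand. Emcn spans chromosome 3, 137341067 to 137432185, plus strand, and Ehd3 chromosome 17, 73804134 to 73832094, plus strand. Counts were summed over exons of a gene symbol, so isoforms such as the soluble form of VEGFR1 cannot be separated.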

How the data were processed

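Polyadenylated RNA of whole kidney was counted in 9 libraries, 3 a group, with groups taken from the labels. The authors deposited raw counts, as whole numbers by gene symbol, in separate tables for each mutant that share the WT libraries. Per the submitters' processing notes STAR 2.7.3a, featureCounts 2.0.1, Trim Galore 0.6.3 and the build mm10 were used, with FastQC 0.11.9, MultiQC 1.10.1 and DESeq2 1.30.0, in roles not stated. The tables shared 52163 symbols, of which 3 with differing WT counts were left out. Per the labels' protocols the library kit was ScriptSeq v2, and the strand setting of the counting is not given in the sources used here.

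All 9 libraries were fitted together with a group term in edgeR 4.0.16 (R 4.3.3; TMM, filterByExpr, quasi-likelihood test) with Benjamini-Hochberg adjustment over 18067 genes at a false discovery rate of 0.05. Alternatives were other scalings and filters, DESeq2 1.42.0, limma 3.58.1 (voom), a replicate block, the slope of centred log2 CPM (prior count 2) on the longest transcript length of GENCODE vM21 or its sign as a term, 6 libraries alone, and each library left out. Steps were tested on simulated counts that lacked the length split between libraries, so they do not show how the fits behave under it. Levels per kilobase use the union of annotated exons. Exact permutation tests were not used, since 0.1 is the smallest p that 3 against 3 allows. Replicates differed beyond counting noise (chi-square per degree of freedom of at least 9.08). The members, gene lists and length terms were chosen with earlier results of these data known. Context genes named are the called ones of each list (up to 4) or the 1 with the smallest p, and the 5 genes nearest to the members' mean. Egfl7, Adgrl4, S1pr1, Thbd, Id3, Tm4sf1, Lyve1, Adipoq, Xist and the Y-linked genes were named after their values were seen. So were Igfbp3, Aqp1, Npr3, Csf1r and Itga2b.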

Additional observations from a re-analysis of the deposited data

How the results depend on the processing

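Of the 10 members, 0 were called in each comparison with the group term only, and this count stayed at 0 with RLE or upper quartile factors, library size alone, no filter, a minimum of 1 CPM, 6 libraries alone, without any single library and without the 3 libraries rich in adipocyte markers. Other fits called more: in ΔPod against WT limma-voom 9 and the length slope 1, in K2A against WT DESeq2 1, limma-voom 10, the length slope 1 and its sign 1, and in K2A against ΔPod limma-voom 3. With the length slope and without 1 library, counts ran from 0 to 1, from 1 to 3 and from 0 to 4 members, beside 1024 to 3231, 1498 to 3793 and 1 to 3033 of all genes, and with the slope and without the adipocyte-rich libraries they were 1, 3 and 0, where K2A is 1 library whose spread is assumed. With a replicate block 0 members were called and 270, 232 and 0 of all genes against 178, 153 and 0 without it. Same-numbered libraries did not deviate together in every pair (correlations from -0.620 to 0.850). WT 1 is a long-transcript library, whereas ΔPod 1 and K2A 1 are short-transcript ones. These correlations therefore cannot decide whether the numbers pair the samples, and the labels do not say so.

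Over all genes the calls in ΔPod and K2A against WT and in K2A against ΔPod were 998, 909 and 19 with DESeq2, 14246, 14262 and 5060 with limma-voom, 2577, 2864 and 33 with the slope, 715, 739 and 0 with its sign, 54, 197 and 0 in 6 libraries, 47, 4 and 0 without the adipocyte-rich libraries and 3993, 3218 and 717 there with the slope. Without 1 library they ran from 23 to 411, from 3 to 173 and from 0 to 2.

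Log2 fold changes that changed sign were near 0 in most cases. In ΔPod, Vegfa was at -0.000501 with RLE factors, -0.000384 with DESeq2, -0.34 with limma-voom, -0.050 with no filter and -0.10 with the block. With the slope Kdr was at 0.23, Flt1 at 0.092, Emcn at -0.067, Ehd3 at 0.074, Tek at 0.11 and Upk1b at -0.85, and with its sign Kdr was at 0.0061, Emcn at -0.026 and Upk1b at -0.035. In K2A, Pecam1 was at 0.13 with upper quartile factors, 0.069 with library size alone, 0.0073 with 1 CPM, 0.32 with the slope and 0.23 with its sign, Vegfa at -0.32 with limma-voom and -0.018 with the block, Flt1, Ehd3 and Tek at 0.11, 0.13 and 0.10 with the slope, and Tek at 0.057 with its sign. In K2A against ΔPod, limma-voom gave Flt1 -0.24, Tek -0.14 and Eng 0.023, Ehd3 was at 0.069 with the block, 0.051 with the slope and 0.085 with its sign, and Tek at -0.010 with the slope. Without 1 library the ranges that crossed 0 were -0.51 to 0.25 (Vegfa), -1.24 to 0.12 (Ehd3) and -0.32 to 2.52 (Upk1b) in ΔPod, -0.31 to 0.18 (Vegfa), -2.02 to 0.20 (Flt1) and -0.25 to 0.071 (Pecam1) in K2A, and in K2A against ΔPod -0.71 to 1.46 (Cdh5), -0.61 to 0.86 (Ehd3), -0.78 to 0.86 (Eng), -1.46 to 1.86 (Flt1), -1.62 to 0.53 (Kdr), -0.45 to 0.58 (Tek) and -0.29 to 0.53 (Vegfa). Ranges in ΔPod that kept their sign were -2.12 to -0.083 (Flt1), -2.11 to -0.25 (Cdh5), -1.65 to -0.16 (Eng), -1.48 to -0.079 (Kdr), -1.05 to -0.19 (Pecam1), -0.85 to -0.046 (Tek) and 0.016 to 0.19 (Emcn). In K2A they were -2.05 to -0.58 (Kdr), -1.45 to -0.36 (Cdh5), -1.35 to -0.54 (Eng), -0.94 to -0.14 (Ehd3), -0.79 to -0.045 (Tek) and 0.25 to 0.74 (Emcn). The lowest values of the negative ranges were those without ΔPod 3 and without K2A 3. The cause was not tested.

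Each member had at least 118 counts in every library, and the part of depth was not tested. The limits are 3 libraries a group, a length slope that divides every group, and genotype and sex that cannot be told apart.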

Other observations

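Markers of other kidney cells, listed to read the endothelial genes against, held 0 called genes in both comparisons with WT. They cover podocytes (14 tested), mesangial cells, pericytes and smooth muscle (12), leukocytes and platelets (10), proximal tubule (9), thick limb and distal tubule (7), collecting duct (7), adipocytes (6), urothelium (6) and blood cells (6). DESeq2 called adipocyte markers, 4 in ΔPod and 5 in K2A, and 1 proximal tubule marker in ΔPod, where 5.52% and 5.03% of all genes were called. In the proximal tubule list 7 of 9 values were negative in ΔPod (median -0.60) and 8 in K2A (median -0.82). Slc22a6, the organic anion transporter gene, had a log2 fold change of -2.29 in ΔPod (adjusted p = 0.282), and Slc34a1, the phosphate transporter gene, was at -2.13 in K2A (adjusted p = 0.381). Around the capillaries, the mesangial gene Itga8 was at 0.98 in ΔPod (adjusted p = 0.271) and the pericyte gene Rgs5 at 0.77 in K2A (adjusted p = 0.456). With the length slope as a covariate Rgs5 rose in ΔPod and in K2A (0.60 and 0.50, adjusted p = 0.0162 and 0.0277) and Slc22a6 fell in both (-1.78 and -1.64, adjusted p = 0.000378 and 0.000481). That fit called 14.3% and 15.9% of all genes. In the proximal tubule list 1 rose and 4 fell in ΔPod, and 0 rose and 3 fell in K2A. Calls that rose numbered 2 and 1 in the mesangial, pericyte and smooth muscle list and 1 and 2 among podocyte markers. Among thick limb and distal tubule markers they were 2 and 0, for collecting duct 1 and 0 and for adipocytes 0 and 5.

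Lyve1, a hyaluronan receptor gene of lymphatic endothelium, was near the lower end of detection, at 0.0286 to 0.527 CPM over the libraries. Its log2 fold change in K2A was 2.62 (adjusted p = 0.0749) in edgeR, not called, and 2.51 (adjusted p = 0.00995) with the length slope as a covariate, where 7.46% of all genes were called as higher. It was chosen after its values were seen.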
